A study of Homo sapiens with 11 samples.

Results

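Interferon-stimulated genes are the genes that cells switch on in answer to interferons, and their products restrict viruses and raise the cell's readiness to detect them. A list of 32 such genes was taken, of which 31 could be measured among the 19775 genes read in MDA-MB-231 cells, an established human breast cancer line of the triple-negative type. STAT2, a transcription factor that carries the interferon signal, is the other one; no probe set with its symbol alone was analysed here. The 31 genes were read by 51 probe sets, with 1 probe set for 15 genes and several for 16.

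RNA was measured on 11 Affymetrix arrays in 9 groups. All groups were first held for 4 h in 10% serum stripped with charcoal, and the agents were then present or absent for 3 h. The groups were an untreated control (2 arrays), E2-BSA at 1 µM (2 arrays), and 1 array each of estradiol at 1 µM, ICI at 10 µM, E2-BSA plus ICI, G15 at 10 µM, E2-BSA plus G15, BSA at 1 µM and ethanol at 0.1%, with the same doses in the combinations. E2-BSA is estradiol bound to bovine serum albumin, BSA is that carrier alone and ethanol is a solvent; G15 blocks the membrane estrogen receptor GPER, and ICI is an antagonist given in the labels by this abbreviation. The labels do not say whether the duplicates were separate cultures, so p-values measure only the spread between these arrays, which may be technical. All values below are log2 values relative to a reference of each probe set, averaged per gene. They show differences between arrays for a gene, and neither its level nor its level against another gene. For the same reason the cell type could not be checked against marker levels.

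Type I and type III interferons bind surface receptors whose kinases JAK1 and TYK2 phosphorylate STAT2. STAT2 and IRF9 are parts of the complex ISGF3, which enters the nucleus and binds an interferon-stimulated response element (ISRE), a pair of GAAA blocks with a short spacer, in the promoters of the genes. Interferon gamma acts on a different element, GAS, and drives antigen presentation and guanylate-binding proteins more strongly. IRF7 and IRF1 are themselves induced factors that can act on overlapping elements.

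The ISRE core GAAANNGAAA, searched on both strands, was looked for in RefSeq promoters of build GRCh38.p14, each running from 250 bases before to 50 bases after a transcript start. Of 26 listed genes with a promoter entry, 19 (73.1%) held a match, against 4.38% of all 27305 genes with a promoter of that length. The 5 windows below show these blocks in genes whose values are described later. Matches are in capitals, and a match on the opposite strand reads TTTCNNTTTC.
ISG15: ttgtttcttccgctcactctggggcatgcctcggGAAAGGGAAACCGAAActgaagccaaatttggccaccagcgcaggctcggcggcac
IFIT1: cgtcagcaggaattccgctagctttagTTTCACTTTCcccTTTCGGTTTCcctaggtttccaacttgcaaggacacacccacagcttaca
DDX60: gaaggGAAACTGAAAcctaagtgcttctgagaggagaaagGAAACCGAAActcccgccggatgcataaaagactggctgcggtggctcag
IFI27: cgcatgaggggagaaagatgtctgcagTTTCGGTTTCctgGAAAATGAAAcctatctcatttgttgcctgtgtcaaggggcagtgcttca
SAMD9: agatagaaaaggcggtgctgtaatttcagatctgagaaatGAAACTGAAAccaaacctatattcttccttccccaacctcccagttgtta
The windows lie at chr1:1013350-1013439 on the plus strand (ISG15), chr10:89392480-89392569 on the plus strand (IFIT1), chr4:168318756-168318845 on the minus strand (DDX60), chr14:94110601-94110690 on the plus strand (IFI27) and chr7:93118066-93118155 on the minus strand (SAMD9). All are upstream of the start. The match nearest the start lay at base -107 from it in ISG15, -103 in IFIT1, -53 in DDX60 and -136 in SAMD9. In IFI27 it lay at -95 or -174, for different transcript starts. ISG15, IFIT1, DDX60 and IFI27 each hold 2 matches in this window and SAMD9 holds 1. In ISG15 the 2 matches share a GAAA block and were counted separately. OAS1, SAMD9L and IRF9 held no match in their promoter, which says only that these letters are not in that window. The GAS core TTCNNNGAA was present in the promoter of 9 of 26 listed genes (34.6%), against 9.38% of all genes. Overlaps between ISRE and GAS matches were not removed, and a match is a description of letters and not of binding.

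The arrays did not form a single series. The poly-A spike-in controls, added to the RNA for labelling and read by 24 probe sets, parted the 11 arrays into a set of 3 (first control 1.62, estradiol 1.58, first E2-BSA 1.40) and a set of 8 (-0.56 to 0.10). The gap between the sets was 1.30 and the next largest gap 0.39. The labels name no batch. Each duplicated group has 1 array in either set, so the set can be estimated apart from the agents, but estradiol is measured in the set of 3 only. The median of the 31 genes was 0.78, 0.59 and 0.27 in the first control, estradiol and first E2-BSA arrays, and between -0.24 and -0.0023 in the set of 8, so the 3 arrays were all above the 8. Other measures of array quality overlapped between the sets: the 3′ minus 5′ difference of ACTB was -0.31 to -0.15 in the set of 3 and -0.17 to 0.35 in the set of 8, and that of GAPDH lay between -0.15 and 0.08 in all arrays. Leukocyte markers, 6 of 8 measured, summed to 1.54, 0.70 and 0.26 in the first control, estradiol and first E2-BSA arrays and to between -0.81 and 0.87 in the set of 8; their part in the results was not tested. CD14 alone read 0.98, 0.49 and 0.28 in those arrays of the set of 3. Between the means of the sets, CD14 (0.70), PTPRC (0.25) and NKG7 (0.15) were higher in the set of 3. CD3E (-0.11), ITGAM (-0.04) and LILRA4 (-0.09) were lower there.

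**Figure D1:**
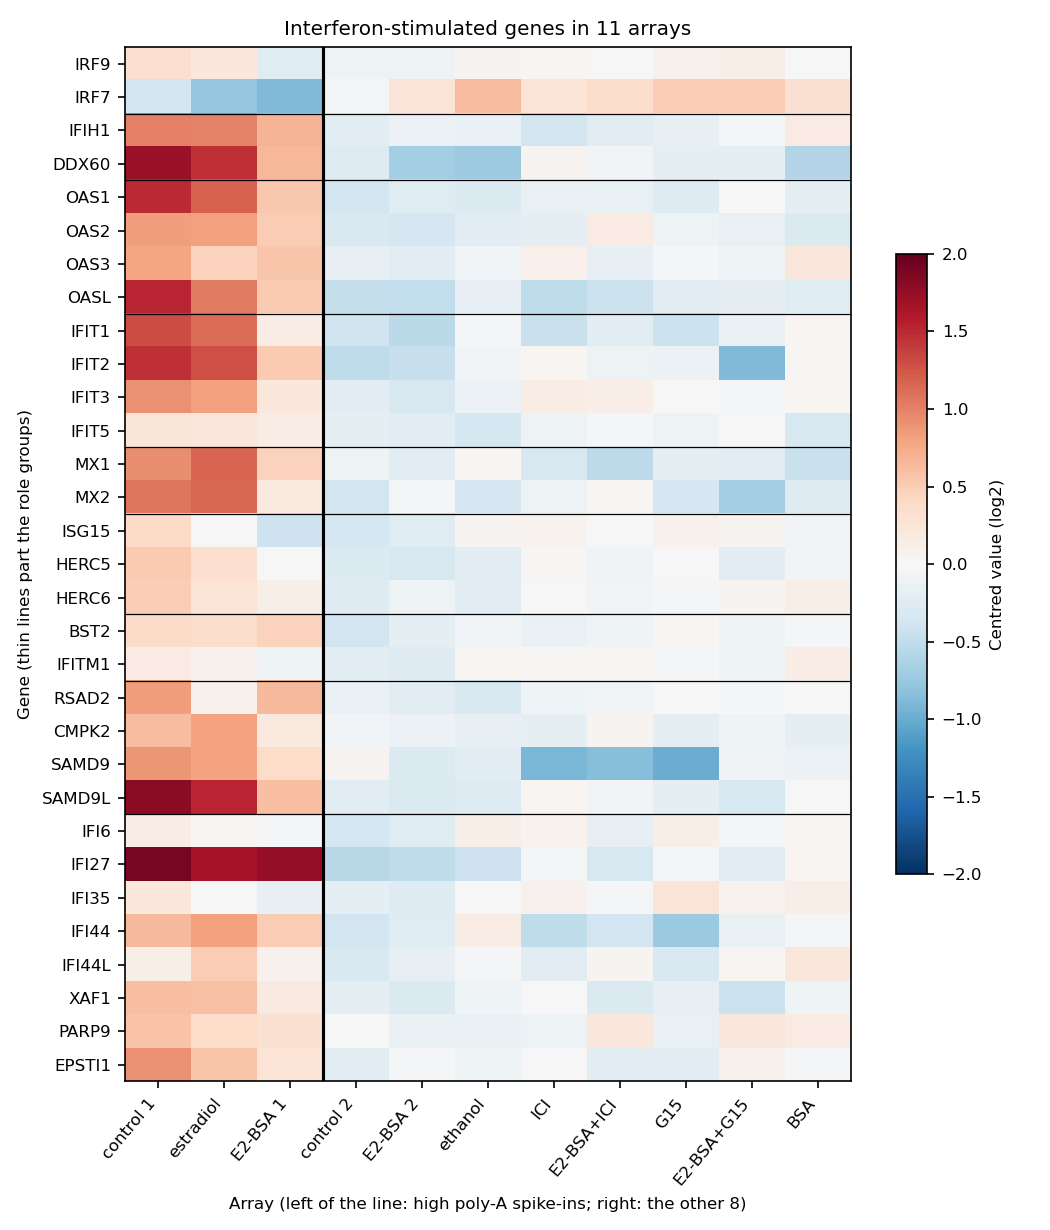
Log2 values relative to each probe set's reference, for the 31 genes (rows, grouped by role) in the 11 arrays (columns, the set of 3 and then the set of 8). Most genes are high in the set of 3, highest in the first control or the estradiol array, and IRF7 has the opposite pattern.

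Interferon-stimulated genes stood higher in the set of 3. The limma fit, with terms for the set and for every agent, called 21 of the 31 genes at an adjusted p under 0.05, 20 of them higher and IRF7 lower. The background for this comparison is 23.9% of all genes called (4720 of 19775) and 13.9% called higher. The fitted difference of the 31 had a median of 0.74, against 0.07 over all genes, and 30 of the 31 were above 0. Without the fit, 23 of the 31 had all 3 arrays above all 8, against 13.5% of all genes, and 1 (IRF7) had all 3 below, against 16.3%. The fit gives the set difference with the agents held constant, so it differs from the difference of the means of the arrays.

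Of the transcription factors, IRF7 was lower in the set of 3 and IRF9 did not pass. IRF9, the DNA-binding subunit of ISGF3, stood at 0.33 in the first control, 0.22 in estradiol and -0.25 in the first E2-BSA array; in the set of 8 it ran from -0.11 to 0.14 with a median of 0.03. The sets overlapped for IRF9, and its fitted difference was 0.14 ± 0.16 (SE; limma adjusted p = 0.567). IRF7, a factor that amplifies type I interferon production, stood at -0.37, -0.78 and -0.88 in the first control, estradiol and first E2-BSA arrays, against -0.03 to 0.61 in the set of 8 (median 0.33). All 3 were below all 8, with a fitted difference of -0.73 ± 0.18 (SE; limma adjusted p = 0.0235). IRF7 was read by 1 probe set, 208436_s_at, of a kind that can cross-hybridise. Its difference was -0.95 without the second control, -0.41 without the first E2-BSA array and -0.52 without the second. In none of these runs was IRF7 called. 

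The RNA sensors were higher in the set of 3. DDX60, a helicase that supports RNA sensing, stood at 1.73, 1.47 and 0.66 in the first control, estradiol and first E2-BSA arrays and at -0.72 to 0.05 in the set of 8 (median -0.22). Its sets did not overlap, and the fitted difference was 1.66 ± 0.24 (SE; limma adjusted p = 0.00247). IFIH1 encodes MDA5, a sensor of long double-stranded RNA. Its values were 1.01, 0.996 and 0.68 in the first control, estradiol and first E2-BSA arrays and -0.36 to 0.17 in the set of 8, and it was higher by 1.01 ± 0.14 (SE; limma adjusted p = 0.00217).

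The OAS family encodes enzymes that make 2′-5′ oligoadenylate and so switch on RNase L. All 4 members measured were higher in the set of 3, by 0.85 (OAS3) to 1.51 (OASL) in the fit. OAS1 stood at 1.49 in the first control, 1.18 in estradiol and 0.54 in the first E2-BSA array, against -0.38 to -0.01 in the set of 8 (median -0.21). OASL, a member of the family that enhances RNA sensing by RIG-I, stood at 1.53, 1.04 and 0.52 in the same order, against -0.50 to -0.17 in the set of 8 (median -0.34). For both, the first E2-BSA array was the lowest of the 3 and still above all 8; the fitted set differences were 1.32 ± 0.26 for OAS1 (SE; limma adjusted p = 0.00967) and 1.51 ± 0.25 for OASL (SE; limma adjusted p = 0.00464). OAS2 was higher by 0.99 ± 0.16 (SE; limma adjusted p = 0.00391).

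IFIT proteins bind foreign RNA and block its translation. IFIT1 stood at 1.30 in the first control, 1.11 in estradiol and 0.14 in the first E2-BSA array, against -0.54 to 0.04 in the set of 8 (median -0.32). IFIT2 stood at 1.46, 1.29 and 0.53 in the same order, against -0.88 to 0.04 (median -0.10). All 4 IFIT genes passed the test, with fitted differences of 0.40 (IFIT5), 0.83 (IFIT3), 1.19 ± 0.31 (SE; IFIT1, limma adjusted p = 0.0289) and 1.47 ± 0.23 (SE; IFIT2, limma adjusted p = 0.00384). The first E2-BSA array was again the lowest of the 3 in IFIT1 and IFIT2.

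The MX GTPases trap incoming viral nucleocapsids. MX1 stood at 1.17 in estradiol, 0.93 in the first control and 0.46 in the first E2-BSA array, against -0.53 to 0.04 in the set of 8 (median -0.20). MX2 stood at 1.15, 1.07 and 0.20 in the same arrays, against -0.68 to 0.05 (median -0.30). MX1 was higher by 0.84 ± 0.13 (SE; limma adjusted p = 0.00361), while MX2 had a fitted difference of 0.84 ± 0.26 (SE; limma adjusted p = 0.0507) and did not pass.

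In the ISG15 system HERC5 and HERC6 passed and ISG15 did not. ISG15 encodes a ubiquitin-like protein that is attached to other proteins, and its values were 0.38 in the first control, 0.01 in estradiol and -0.41 in the first E2-BSA array. The 8 other arrays ran from -0.35 to 0.08 (median 0.03), so the sets overlapped, and the fitted difference was 0.28 ± 0.20 (SE; limma adjusted p = 0.361). It was 0.68 when the first E2-BSA array, the lowest for ISG15, was left out. HERC5, the ligase that attaches ISG15, stood at 0.53, 0.33 and 0.01 in the same order, against -0.32 to 0.02 (median -0.14). HERC5 was higher by 0.56 ± 0.14 (SE; limma adjusted p = 0.0217) and its relative HERC6 by 0.49 ± 0.14 (SE; limma adjusted p = 0.0438).

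BST2 encodes tetherin, which holds new virions at the cell surface. Its values were 0.46 in the first E2-BSA array, 0.38 in the first control and 0.36 in estradiol, against -0.39 to 0.04 in the set of 8 (median -0.09). For BST2, as for OAS3, RSAD2 and IFI27, the first E2-BSA array was not the lowest of the 3. The 2 probe sets of OAS3 differed in this. In the first control, first E2-BSA and estradiol arrays, 232666_at read 0.41, 0.34 and -0.42. In the same arrays 218400_at read 1.15, 0.75 and 1.36, with the first E2-BSA array lowest. BST2 was higher by 0.71 ± 0.12 (SE; limma adjusted p = 0.00432). IFITM1, which blocks viral entry at membranes, did not pass (0.26 ± 0.11, SE; limma adjusted p = 0.129).

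Among the other effectors, SAMD9L, a restriction factor for poxviruses, stood at 1.81 in the first control, 1.52 in estradiol and 0.60 in the first E2-BSA array, against -0.32 to 0.05 in the set of 8 (median -0.21). SAMD9, its neighbour and paralogue, stood at 0.89, 0.81 and 0.37 in the same order, against -1.0 to 0.05 (median -0.25). SAMD9L was higher by 1.46 ± 0.27 (SE; limma adjusted p = 0.00693). SAMD9 had a difference of 0.74 ± 0.30 (SE; limma adjusted p = 0.115) and did not pass; the 2 genes were not tested against each other. Between the means of the sets, SAMD9 differed by 1.21 on 219691_at and by 1.02 on 228531_at. It was called in the fits added after the data were seen, without the E2-BSA with G15 array and from the means of the sets. RSAD2, which encodes the antiviral enzyme viperin, stood at 0.83 in the first control, 0.65 in the first E2-BSA array and 0.08 in estradiol and was higher by 0.91 ± 0.11 (SE; limma adjusted p = 0.00111). CMPK2, a mitochondrial nucleotide kinase, did not pass (0.50 ± 0.16, SE; limma adjusted p = 0.0597).

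IFI27, a small mitochondrial membrane protein, had the largest set difference of the 31 genes in this fit. It stood at 1.90, 1.76 and 1.66 in the first control, first E2-BSA and estradiol arrays, against -0.55 to 0.04 in the set of 8 (median -0.27), and it was higher by 2.37 ± 0.12 (SE; limma adjusted p = 5.38e-05). IFI44 (0.89), EPSTI1 (0.71) and XAF1 (0.62) passed as well. IFI6 (0.35), IFI44L (0.35), PARP9 (0.51) and IFI35 (0.24) did not, with limma adjusted p between 0.071 and 0.179. The count of 21 rests on the duplicated arrays: leaving out the second control left 7 genes called, all among the 21, leaving out the second E2-BSA array left 11, and leaving out the first control left 15. Without the first E2-BSA array 24 were called, 19 of them among the 21. IFI27, IFIH1, IFIT2, OAS3 and RSAD2, 5 genes, were called under every alternative run. For OAS3 and IFIH1 the probe sets differed in size. Between the means of the sets, OAS3 differed by 1.29 on 218400_at and by 0.0080 on 232666_at. IFIH1 differed by 2.32 on 219209_at, 0.50 on 1555464_at and 0.27 on 216020_at.

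**Figure D2:**
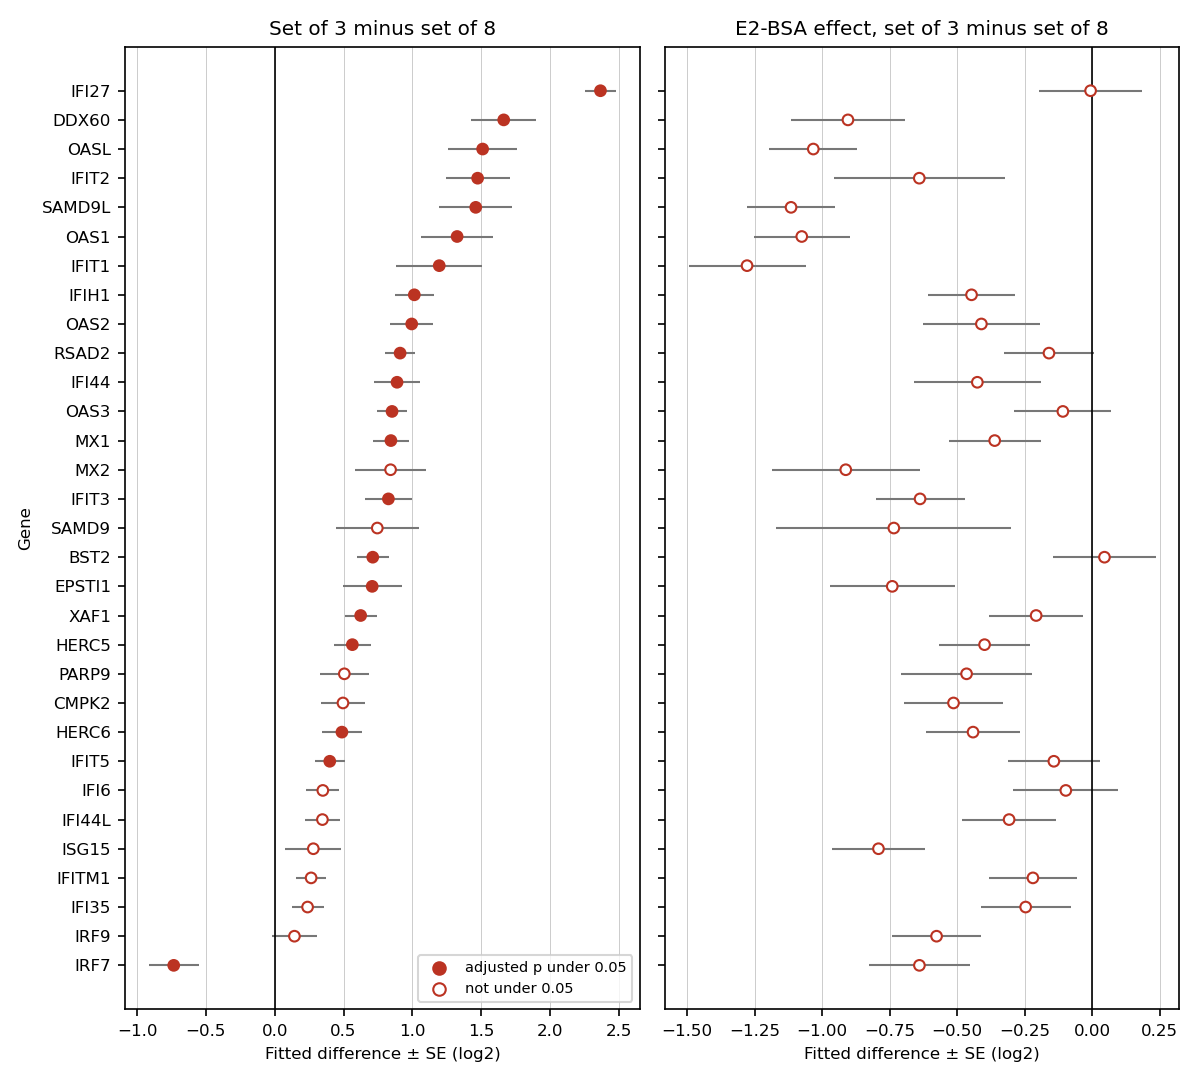
Fitted log2 differences for the 31 genes, with bars of 1 SE: the set of 3 minus the set of 8 (left) and the E2-BSA effect in the set of 3 minus that in the set of 8 (right). Filled points have a limma adjusted p under 0.05, which 21 genes reach on the left and 0 on the right; IFI27 (2.37) is highest on the left and IFIT1 (-1.28) lowest on the right.

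E2-BSA was compared with its matched array in 4 pairs that share no array. In the set of 3 there is 1 array on each side, so no test was made. In RNA of whole cultures, fewer responding cells and less RNA per cell cannot be told apart. In the first pair, that of the set of 3, E2-BSA minus control was negative in 30 of 31 genes, with a median of -0.43, against -0.0025 over all genes. It was below -0.5 in 14 of the 31, against a background of 3.89% of all genes. Largest were SAMD9L (-1.22), IFIT1 (-1.16), DDX60 (-1.07), OASL (-1.0), OAS1 (-0.95), IFIT2 (-0.93), MX2 (-0.87) and ISG15 (-0.79), and only BST2 lay above 0 (0.08). The 5 smallest differences in size were those of IFI44L (-0.06), BST2, IFIT5 (-0.09), IFI44 (-0.14) and IFI27 (-0.15). The 3 arrays lay above all 8 with the first E2-BSA array lowest of the 3 in 19 of the 31, against 6.42% of all genes. Of the genes with all 3 above all 8, that array was lowest in 19 of 23 listed genes and in 47.7% of all 2663 such genes. 

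In the 3 pairs of the set of 8 the 31 genes did not lie on one side. The median difference was -0.04 for E2-BSA minus control, 0.0030 for E2-BSA with ICI minus ICI and -0.02 for E2-BSA with G15 minus G15. In the first of these, 0 of the 31 were lower by more than 0.5, against 0.207% of all genes. In the ICI pair it was also 0, against 0.688%. The G15 pair had 1 lower by more than 0.5, IFIT2 (-0.77), against 6.06% of all genes. It had 2 higher by more than 0.5, against 1.61%. SAMD9L differed by -0.07, -0.10 and -0.13, against -1.22 in the set of 3, and IFIT1 by -0.14, 0.21 and 0.29, against -1.16. The limma fit within the set of 8 called 0 of 31 genes (0% of all genes; 3 of the 31 at an unadjusted p under 0.05, 757 genes in all). Those 3 were IFI44 and IFI44L, above 0, and XAF1, below 0. For E2-BSA in the set of 8, the 95% interval was -0.29 to 0.09 for SAMD9L and -0.14 to 0.38 for IFIT1. It was -0.20 to 0.21 for ISG15. SAMD9L and IFIT1 had the largest differences in the first pair, which has 1 array on each side. These intervals are therefore no test of that pair against the set of 8.

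The difference between the sets was tested as an interaction in limma, and 0 of 31 genes passed (0% of all genes; 14 of the 31 and 1842 of all genes at an unadjusted p under 0.05). The fitted difference was negative for 30 of the 31, with a median of -0.45, against 0.02 over all genes. The strongest were IFIT1 (-1.28 ± 0.22), SAMD9L (-1.12 ± 0.16), OAS1 (-1.08 ± 0.18) and OASL (-1.03 ± 0.16), each ± SE with limma adjusted p = 0.269. That fit has 2 residual degrees of freedom, and a single pair in the set of 3. With both sets together, E2-BSA had a median of -0.14 and 0 of 31 genes called (0% of all genes; 4 of the 31 and 930 of all genes at an unadjusted p under 0.05).

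**Figure D3:**
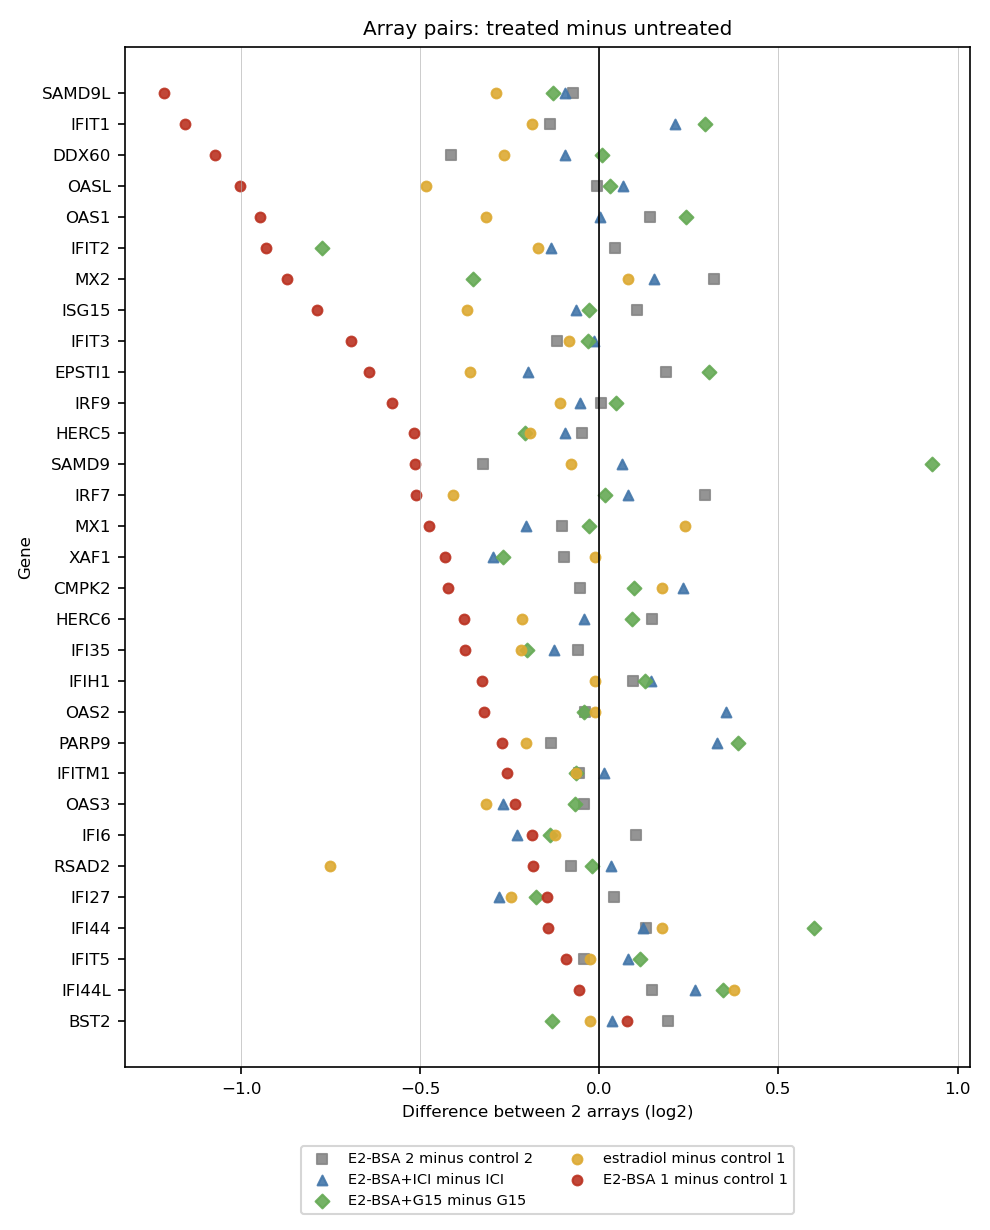
Treated minus untreated array in log2 for each of the 31 genes, with the first E2-BSA pair, the other 3 E2-BSA pairs and the estradiol pair as separate symbols. The first pair runs down to -1.22 and the 3 pairs of the set of 8 scatter around 0; SAMD9 in the E2-BSA with G15 pair (0.93) is the highest point.

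Estradiol, measured on 1 array, shares its control array with the first E2-BSA pair. Estradiol minus control was negative in 26 of 31 genes with a median of -0.17, and 1 gene, RSAD2 (-0.75), was lower by more than 0.5, against 2.98% of all genes. Over all genes, 51.7% were negative in this pair, with a median of -0.0085. E2-BSA minus estradiol within the set of 3 had a median of -0.32. IFIT1 (-0.97) was lowest and RSAD2 (0.57) highest. In the additive fit, limma called 0 of 31 genes for estradiol (0% of all genes; 2 of the 31 and 1377 of all genes at an unadjusted p under 0.05), those 2 being RSAD2 (-0.69 ± 0.14, SE) and IFI44L (0.49 ± 0.16, SE). The fitted median for estradiol was 0.07, with 18 of the 31 above 0 and 13 below, so its sign differs from that of the single pair. The fit takes E2-BSA to act alike in both sets. It therefore sets estradiol against a level drawn from the first E2-BSA array as well as the first control. The fitted value is thus not the estradiol minus control difference.

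The antagonists, vehicle and carrier were compared as present or absent in the same additive fit. For ICI the 31 genes had a median of 0.15, against 0.14 over all genes, and 0 were called (0% of all genes; 4 of the 31 and 3210 of all genes at an unadjusted p under 0.05 in limma). For G15 it was 0.17 against 0.10, with 0 called (0% of all genes; 4 of the 31 and 2058 of all genes at an unadjusted p under 0.05 in limma). Ethanol gave 0.05 against 0.02 with 0 of 31 called (0.121% of all genes; 1 of the 31, IFI44, and 1241 of all genes at an unadjusted p under 0.05 in limma). BSA gave 0.15 against 0.17 with 0 of 31 called (0.369% of all genes; 5 of the 31 and 3198 of all genes at an unadjusted p under 0.05 in limma). With each array centred on its median, the medians of the 31 became 0.03 for ICI, 0.09 for G15, 0.02 for ethanol and -0.0017 for BSA, so the direction for BSA depends on the scaling. Shifts of single genes included SAMD9 for ICI (-0.77 ± 0.30, SE; limma adjusted p = 0.29), IFI27 for BSA (0.51 ± 0.15, SE; limma adjusted p = 0.234), and IFI35 for G15 (0.39 ± 0.12, SE; limma adjusted p = 0.474).

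SAMD9 left the pattern of the others, and did so on 1 of its 2 probe sets. Probe set 228531_at read -1.80 in ICI, -1.61 in E2-BSA with ICI and -1.90 in G15, against -0.17 to 0.69 elsewhere. Probe set 219691_at read -0.02, -0.09 and -0.10 in those 3 arrays. After these values were seen, 60 of 54675 probe sets (0.11%) were found lower by more than 1 in these 3 arrays than in each other array of the set of 8, 1 of them of the listed genes. Other genes also had probe sets that read differently. IFI44 was read at -0.79, -0.81 and -1.48 by 214453_s_at and at -0.21, 0.05 and -0.0050 by 214059_at in ICI, E2-BSA with ICI and G15. OASL was read at -1.07 in ICI by 205660_at and at 0.06 by 210797_s_at. In E2-BSA with G15, IFIT2 was read at -1.14 by 217502_at and at -0.63 by 226757_at. Probe sets also differed between the means of the set of 3 and the set of 8. PARP9 differed by 1.14 on 223220_s_at and by -0.35 on 227807_at. IFIT3 differed by 1.35 on 229450_at and by 0.05 on 204747_at. XAF1 differed by 1.05 on 206133_at, 0.93 on 228617_at and -0.05 on 242234_at. IFI44 differed by 1.64 on 214453_s_at and by 0.25 on 214059_at. Gene values that average such probe sets, and the tests on them, therefore depend on each of them.

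**Figure D4:**
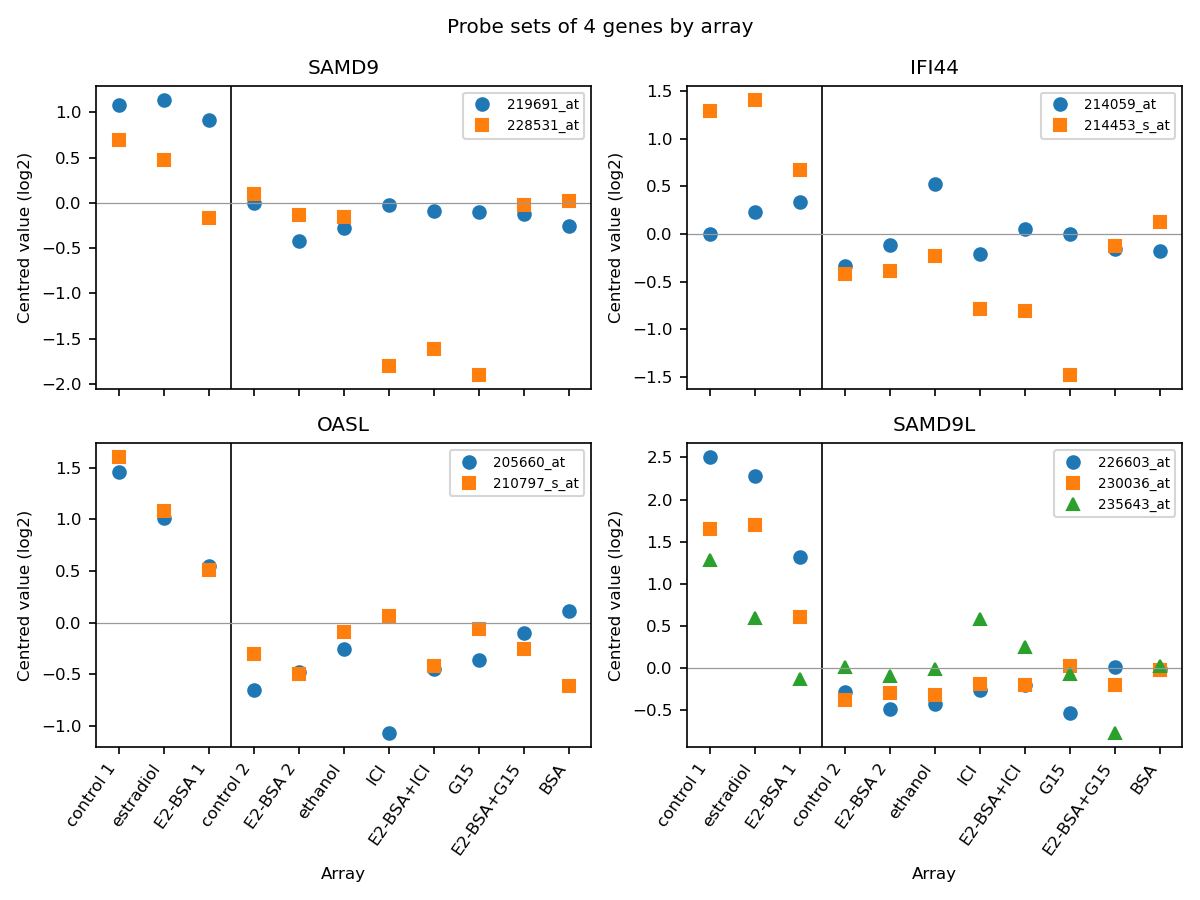
Log2 values in each of the 11 arrays of the single probe sets of SAMD9, IFI44, OASL and SAMD9L, 1 symbol a probe set, with a line between the set of 3 and the set of 8. Probe set 228531_at of SAMD9 reads -1.90 to -1.61 in ICI, E2-BSA with ICI and G15, and 219691_at stays between -0.10 and -0.02 there.

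The 4 genes least alike the others, by Pearson r with the mean of the rest over 11 arrays, were IRF7, IFI35, ISG15 and IFI6. Because the arrays fall into 2 sets, r is given within the 8 arrays of the larger set as a description, without a test; these arrays share the cell line, the platform and the reference of each probe set. It was 0.52, 0.74, 0.76 and 0.74 for these 4, -0.40 for SAMD9 and -0.51 for MX1. Within the 8 arrays r was also below 0 for CMPK2 (-0.30), MX2 (-0.24) and IFIT5 (-0.04), and it was 0.0023 for DDX60. Genes outside the list most alike the mean of the 31 listed genes over 11 arrays were KDM5B, PSG9, TRBC1, S100A3 and TMEM45B. Within the 8 arrays their r was 0.88, 0.61, 0.82, 0.98 and 0.67. Each differed from the first control in the first E2-BSA array by -0.37, -1.10, -0.76, -1.17 and -0.62, in that order. The first control and first E2-BSA arrays entered the choice of these 5 genes, so these differences follow from it.

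Probes of PSG9, TRBC1 and the HLA genes named below may also read close paralogues.

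The rest of the pathway was read with lists of ligands, receptors and targets. The counts below stand against 23.9% of all genes called in the set comparison and 13.9% called higher; a list whose share lies near these is no result about that list. Of 8 interferon ligands measured, 1 passed as higher in the set of 3, IFNL1 (0.49 ± 0.13, SE); IFNB1, which encodes interferon beta, had a difference of 0.0070 ± 0.16 (SE; limma adjusted p = 0.981). Of 9 receptors and kinases, 3 passed as higher, IFNAR1 (0.69), IFNGR2 (0.82) and IL10RB (0.54). Of 10 other STAT, IRF and feedback genes, 3 were higher and 1 lower: IRF1 was higher by 1.74 ± 0.13 (SE; limma adjusted p = 0.000202), with IRF2 (0.60) and IRF5 (0.54), and IRF3 fell by 0.66. These are fitted differences. Without the fit, 0 of these 10 genes had all 3 arrays above all 8, against 13.5% of all genes. All 3 lay below all 8 in 3 of them, against 16.3%. The median difference of the means of the sets was 0.03. SOCS1 and USP18, feedback inhibitors of the signal, did not pass (0.34 and 0.29). Of 12 nucleic acid sensing genes, RIGI (0.65), TBK1 (0.81) and AIM2 (2.34) were higher and CGAS fell by 0.60.

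Of 27 other induced effectors, 11 passed as higher and 0 lower (13.9% of all genes passed as higher), with TNFSF10, the death ligand TRAIL, at 3.13 ± 0.12 (SE; limma adjusted p = 1.77e-05) and TRIM22 at 2.50 ± 0.29 (SE; limma adjusted p = 0.00111). Of 22 genes of the interferon gamma type and antigen presentation, 15 passed as higher and 0 lower; ICAM1 was higher by 2.58, GBP2 by 2.28, CXCL10 by 2.05 and HLA-B by 1.71. The medians of the 6 lists ran from 0.11 (ligands) to 0.86 (interferon gamma type), against 0.07 over all genes. In the E2-BSA difference between sets 0 genes of these lists passed in limma (0% of all genes). Their medians there ran from -0.20 (induced effectors) to 0.0059 (ligands), against 0.02 over all genes. For E2-BSA minus control in the set of 3, the induced effectors had a median of -0.21, with 6 of 27 lower by more than 0.5, and the interferon gamma type a median of -0.205, with 3 of 22, against 3.89% of all genes. Among single genes of the lists, CXCL10 differed by -0.85, TRIM22 by -1.04 and RTP4 by -1.23, while IRF1 differed by 0.14, IFNB1 by 0.36 and IFNAR1 by 0.04. In the BSA fit 2 genes of these lists passed, IRF1 (2.04 ± 0.17, SE; limma adjusted p = 0.00333) and ICAM1 (2.08 ± 0.29, SE; limma adjusted p = 0.0362), and for IRF1 the BSA array (0.79) stood above the first control (0.49), first E2-BSA (0.64) and estradiol (0.34) arrays, so its sets overlapped.

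The ISRE match was compared with the values. Among listed genes with a match (19) the first E2-BSA pair had a median of -0.27 and 14 (73.7%) had the 3 arrays above the 8, and among those without (7) it was -0.43 and 5 (71.4%). Among genes outside the list, 594 with a match had 5.39% lower by more than 0.5 in that pair and 16% with the 3 above the 8; for 14764 without a match these were 3.52% and 14%. Without the genes of the pathway lists, 563 with a match remained, with 4.62% and 14%. These differences between genes with and without the match were not tested.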

How the data were processed

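Gene expression of MDA-MB-231 cells was read on 11 Affymetrix HG-U133 Plus 2.0 arrays. The deposited table was read as log2 values; the log base, the summarisation and the normalization by the authors are not given in the sources used here. A pair of values at equal distance above and below 0, to within 1e-05, lay closest to 0 in 51.3% of the 54675 probe sets, which a median over more arrays than these 11, subtracted from each probe set, would leave. No level, background or detection can therefore be given.

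Groups came from the labels. Probe sets with 1 gene symbol in the platform's annotation (41097; 1801 had several and 11777 none) were averaged per gene, giving 19775 genes. The 41043 gene ids found in the current table needed 0 symbol updates. Array medians spanned 0.14, and no further normalization was applied. No 2 arrays held identical values (0 pairs). The poly-A spike-ins parted the arrays at their largest gap, a technical split used as a term.

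Tests used limma 3.58.1 (lmFit, eBayes without a trend) in R 4.3.3, with Benjamini-Hochberg adjustment over all genes at 0.05; terms were the set and each agent, present or absent. These fits have 2 or 3 residual degrees of freedom, all from the duplicates and the crossed E2-BSA and antagonist arrays, so a lone array is assumed to vary like the others. They were tested on simulated data. A difference past 0.5 between single arrays was counted without a test. Promoters are RefSeq's, build GRCh38.p14.

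The members, gene lists and tests were chosen with earlier results of these data known. Values are given for each array of the set of 3, and as the lowest, median and highest of the set of 8, for ISG15, MX1, IFIT1, OAS1, IRF9 and SAMD9, and for the member of each role with the largest SD over 11 arrays. STAT2 was in this rule and was not measured. The 4 members least alike the rest, the 5 other genes most alike them, and 7 pathway genes were also named; 1 further pathway gene is not reported here. Alternatives were a variance trend, centring, quantile normalization, the median of probe sets, leaving out probe sets that can cross-hybridise, only genes above the median SD, no set term, a replicate block, and each duplicated array or antagonist pair left out. A fit without the E2-BSA with G15 array and a fit to the means of the 3 and 8 arrays were added after the data were seen.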

Additional observations from a re-analysis of the deposited data

Results flagged for a closer look

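In 5 genes the E2-BSA array lay below its control in the set of 3 while all 3 pairs of the set of 8 lay above theirs, against 4.516% of all genes. In the set of 3 each difference comes from 1 array a side. IRF7 differed by -0.51 in the set of 3 and by 0.016 to 0.29 in the set of 8. IFIH1 differed by -0.33 and by 0.093 to 0.14. OAS1 differed by -0.95 and by 0.0030 to 0.24. IFI44 differed by -0.14 and by 0.12 to 0.60. Its probe sets disagreed in the set of 3, with -0.61 on 214453_s_at and 0.33 on 214059_at. For G15 and E2-BSA with G15 they read -1.48 and -0.13 on 214453_s_at, and -0.0050 and -0.16 on 214059_at. The pattern of IFI44 therefore holds for the average and not for each probe set. The same applies to IFIH1 and OAS1. Probe set 1555464_at of IFIH1 differed by 0.03 in the set of 3. Probe set 205552_s_at of OAS1 read -0.13 in ICI and -0.17 in E2-BSA with ICI. IFI44L differed by -0.0555 and by 0.15 to 0.34. The limma interaction, which tests the difference between the sets, gave adjusted p of 0.396 for IRF7, 0.461 for IFIH1, 0.269 for OAS1, 0.645 for IFI44 and 0.649 for IFI44L, so none of these 5 passed.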

How the results depend on the processing

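The number of arrays limits the precision, and the fits rest on 2 duplicated groups. No called value changed sign, and 0 of the 31 genes were called in every comparison other than that of the sets, under every alternative run; unadjusted counts are in the report. In the set comparison 21 genes were called; leaving out 1 array gave 7 to 24. The median difference of all 31 genes, 0.74, became 0.69 with centring, 0.56 with quantile normalization, 0.83 without probe sets that can cross-hybridise, 0.84 over genes above the median SD, 0.65 from means of 3 and 8 arrays, and 0.51 to 0.99 with 1 array left out. Within the set of 8, the E2-BSA median of 0.03 became 0.0872 with quantile normalization and -0.0065 without the G15 pair or without the E2-BSA with G15 array. The difference between sets (-0.45) became -0.33 with quantile normalization, -0.47 with the median of probe sets and -0.48 with 1 array left out. E2-BSA over both sets (-0.14) became -0.0325 with quantile normalization, -0.0872 without cross-hybridising probe sets, -0.23 with the replicate block and -0.23 without it in the 4 duplicated arrays, -0.18 without E2-BSA with G15, and -0.19 to 0.0303 with 1 array left out. ICI (0.15) became 0.0301 with centring, 0.0447 with quantile normalization, -0.23 with no set term and 0.082 to 0.27 with 1 array left out. G15 (0.17) became 0.0897 with centring, 0.14 with quantile normalization, 0.12 without cross-hybridising probe sets, 0.15 over genes above the median SD, -0.30 with no set term, 0.0805 without E2-BSA with G15 and 0.12 to 0.23 with 1 array left out. Ethanol (0.05) became 0.0204 with centring, 0.11 with quantile normalization, -0.35 with no set term and -0.0383 to 0.11 with 1 array left out. Estradiol (0.07) became 0.0902 with centring, 0.029 with quantile normalization, 0.11 without cross-hybridising probe sets, 0.57 with no set term, 0.0122 without E2-BSA with G15 and -0.17 to 0.42 with 1 array left out. BSA (0.15) became -0.0017 with centring, 0.0927 with quantile normalization, 0.19 without cross-hybridising probe sets, -0.22 with no set term and 0.0463 to 0.25 with 1 array left out. The cause of these moves was not tested. Over all genes, the set calls (4720) were 3143, 1660 and 1354 without the first control, the second control and the second E2-BSA array, and 7138 from the means. Calls over all genes for ICI (0) became 7 with quantile normalization and 22 without E2-BSA with G15, and those for G15 (0) became 6, 7 and, without cross-hybridising probe sets, 1. Those for ethanol (24) became 53 with quantile normalization, 11 without cross-hybridising probe sets, 15 over genes above the median SD, 2 with no set term, and 0 and 3 without the second control and the second E2-BSA array. Those for BSA (73) became 8 with no set term, and 6 and 13 without the same 2 arrays. The share of BSA calls that were higher was 35.6%, and 22.4% with centring and 45.7% with quantile normalization.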
